A study of Mus musculus with 6 samples.

Results

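Nuclear receptors are transcription factors that bind DNA through a domain folded around zinc ions, and many of them switch genes on or off when a lipid-soluble ligand docks. The vitamin D receptor (Vdr) pairs with the retinoid X receptor (Rxra) on DNA, as do the farnesoid X receptor (Nr1h4), which senses bile acids, and the PPARs (Ppara, Ppard, Pparg), which sense fatty acids. Hnf4a and Hnf4g keep up gene programs of the intestinal epithelium, Nr5a2 (LRH-1) acts in crypt renewal, and Nr3c1 is the glucocorticoid receptor. In the gut, Vdr is best known for control of calcium uptake.

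The 10 receptors described here were listed by family, out of 55414 genes in the count table, and 9 of them passed the filter on low counts. The list was selected on a measured value for 1 gene: Vdr drew attention because its counts were lower with zinc depletion, so its diet difference is given as a description and without a test. The other 9 were listed as nuclear receptors, though with earlier results of these data known, and are read from the fit over all genes. They share zinc-binding domains and, in several cases, Rxra as a partner.

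Paneth cells (PCs), the secretory cells at the crypt base of the small intestine, were sorted by FACS from wild-type mice and their RNA was sequenced. Mice fed standard chow gave the 3 standard libraries, and mice kept on zinc depleted chow for 7 weeks gave the 3 zinc depleted ones. Both groups had been given TNF, an inflammatory cytokine, 3 hours before sampling, so no library shows receptor levels without TNF. The design text speaks of 4 biological replicates per group, of which the 3 labelled ones per group were used here, and age and sex are not given in the labels.

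Libraries held 6139397 to 12772373 counts. The 6 Paneth cell markers (Lyz1, Defa24, Mmp7, Itln1, Ang4 and Sox9) together took 40.6% to 54.2% of each library. Counts were found for 5 of 6 immune and 4 of 5 stromal markers, at most 0.000798% and 0.000212% of a library. Cd3e and Pdgfra had no count in any library. Levels are given as TMM-scaled CPM, CPM being counts scaled to a common library total and TMM a further scaling that lines up the bulk of the genes, with factors from 0.46 to 1.73. With total counts alone, the median tested gene had a log2 fold change (zinc depleted minus standard) of -0.66. In bulk RNA, fewer cells of a type and less RNA per cell cannot be told apart. Standard replicates 1 and 2 resembled each other most (Pearson correlation 0.938 across genes), while standard replicate 3 was nearer to zinc depleted replicate 2 (0.924) than to either of them (0.858 and 0.871).

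The zinc-binding part of these proteins is what the family shares, so the coding sequence of the first zinc module is shown for the 8 receptors whose sequence is printed here. Each run has 63 bases, from the first to the fourth of the 4 cysteines that hold the zinc ion, and capitals mark those 4 cysteine codons. The modules were found by their cysteine spacing in the canonical transcripts of GENCODE M39 (genome build GRCm39), and all lie in coding exons.
Vdr, exon 3 of 10, minus strand, chr15:97782689-97782751: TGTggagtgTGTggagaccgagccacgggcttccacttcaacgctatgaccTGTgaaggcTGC
Nr1h4, exon 2 of 9, minus strand, chr10:89333915-89333977: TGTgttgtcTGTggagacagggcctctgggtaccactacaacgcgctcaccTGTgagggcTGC
Rxra, exons 3 and 4 of 10 with the intron between them removed, plus strand, chr2:27631188-27631810: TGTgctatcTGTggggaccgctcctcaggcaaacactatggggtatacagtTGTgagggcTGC
Hnf4a, exon 2 of 10, plus strand, chr2:163393559-163393621: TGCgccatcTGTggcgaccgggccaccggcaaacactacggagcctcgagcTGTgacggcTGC
Hnf4g, exon 2 of 10, plus strand, chr3:3703178-3703240: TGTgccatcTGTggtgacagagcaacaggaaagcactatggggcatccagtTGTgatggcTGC
Nr5a2, exon 2 of 7, minus strand, chr1:136872700-136872762: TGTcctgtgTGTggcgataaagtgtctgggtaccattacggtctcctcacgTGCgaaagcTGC
Ppara, exon 4 of 8, plus strand, chr15:85671404-85671466: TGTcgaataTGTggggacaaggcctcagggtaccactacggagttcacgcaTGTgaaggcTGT
Ppard, exon 4 of 8, plus strand, chr17:28514404-28514466: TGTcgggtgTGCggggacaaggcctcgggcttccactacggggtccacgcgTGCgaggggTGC

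All 8 runs carry the 4 cysteine codons at the same positions, since this spacing was used to find them. The module of Vdr was most like that of Nr1h4, with 49 of 63 bases the same, and shared 37 to 43 bases with the other 6 runs above. The closest pair was Rxra and Hnf4g with 51 bases. Likeness in this stretch and likeness in expression are separate measures: Nr1h4, nearest to Vdr in these bases, was the sixteenth of the 26 other tested receptors by its pattern over the libraries (given further on).

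Vdr (ENSMUSG00000022479, chromosome 15, 97752306 to 97808511, minus strand) was abundant in a pair of libraries and scarce in the other 4. It had 920, 398 and 45 counts in standard replicates 1, 2 and 3, and 61, 19 and 17 counts in zinc depleted replicates 1, 2 and 3. In TMM-scaled CPM these were levels of 72.6, 43.1 and 5.02 on standard chow and 4.19, 4.00 and 2.89 with zinc depletion. The groups did not overlap on this scale, but standard replicate 3 lay far closer to the zinc depleted libraries than to the other standard ones. With total counts only, its CPM was 4.51 in standard replicate 3 and 6.105 in zinc depleted replicate 1, so the groups overlapped.

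The log2 difference (fitted log2 fold change, zinc depleted minus standard) of Vdr was -3.44 (SE 0.77), the value that drew attention to it. Its size rested on standard replicates 1 and 2: with both left out it was -0.44 (SE 0.75), where the lone standard library was assumed to vary like the others. With standard replicate 1 alone left out it was -2.69. The exons of Vdr overlap those of an antisense gene over 2.16% of their length, and the use of strand in counting is not given in the sources used here.

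**Figure D1:**
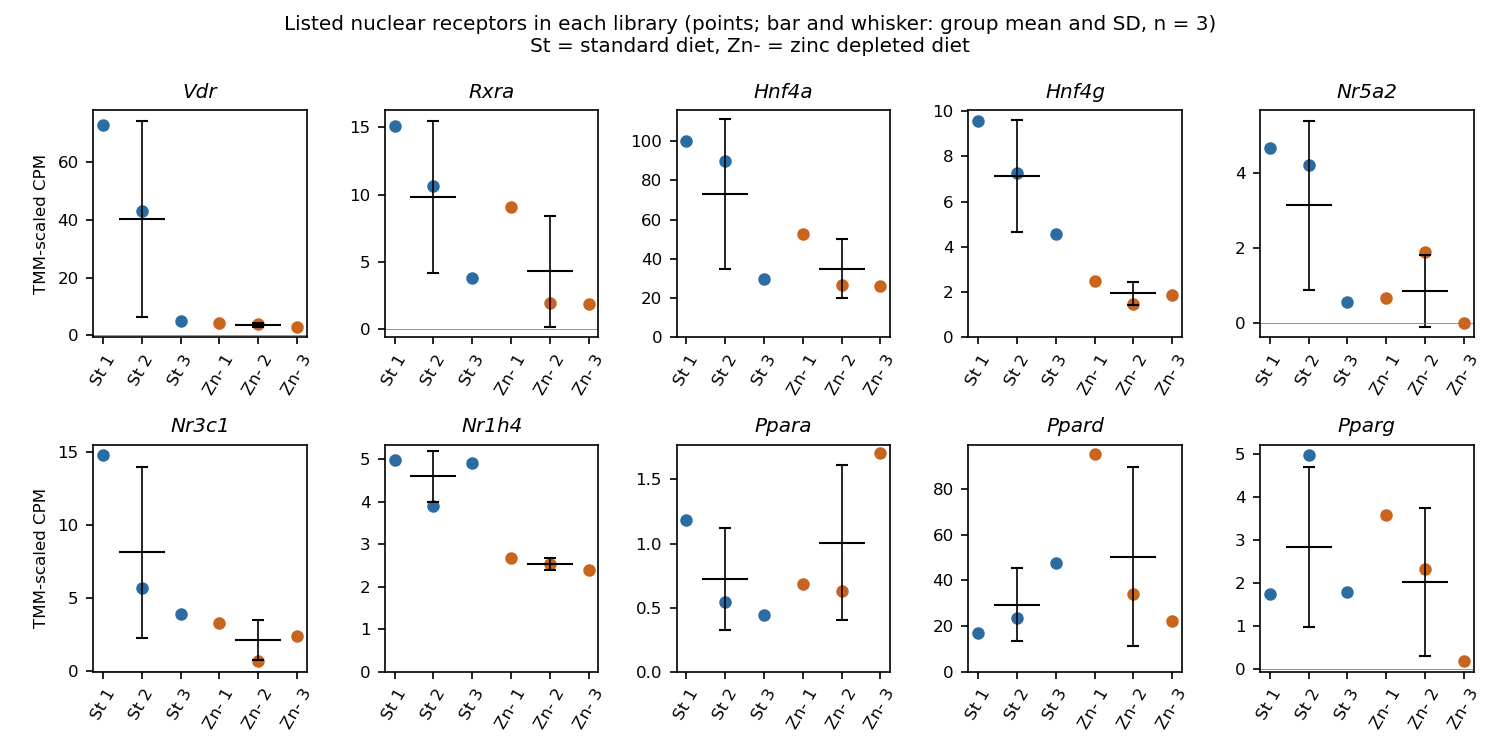
TMM-scaled CPM of the 10 listed receptors (vertical axis, a separate scale for each gene) in the 3 standard diet and 3 zinc depleted libraries (horizontal axis), with the group mean and SD (n = 3). Vdr reached 72.6 and 43.1 in standard replicates 1 and 2 and at most 5.02 elsewhere, whereas Nr1h4 stayed between 2.38 and 4.97.

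Rxra, the partner that Vdr needs on DNA, had 15.1, 10.6 and 3.80 TMM-scaled CPM on standard chow and 9.06, 1.89 and 1.87 with zinc depletion. Zinc depleted replicate 1 lay above standard replicate 3, so the groups overlapped. The log2 difference was -1.13 (SE 0.67, adjusted p 0.681 by edgeR), and single libraries moved it: it was -2.36 without zinc depleted replicate 1, -0.69 without standard replicate 1 and -0.73 without zinc depleted replicate 3. Without standard replicates 1 and 2 it turned to 0.22. Among the counts of Vdr and Rxra together, which need no scaling between libraries, Vdr made up 82.8% and 80.2% in standard replicates 1 and 2 and 57.0% in standard replicate 3. It made up 31.6%, 67.9% and 60.7% in the zinc depleted libraries, so the lowest share was in zinc depleted replicate 1, with a Wilson 95% interval of 25.5% to 38.5%. Standard replicate 3 (46.0% to 67.3%) could not be told from zinc depleted replicates 2 and 3 by counting error.

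Hnf4a, a master regulator of enterocyte genes, was the most abundant of the 10 per length of transcript. Its TMM-scaled CPM was 99.9, 89.8 and 29.6 on standard chow and 52.5, 26.5 and 26.1 with zinc depletion. As for Rxra, zinc depleted replicate 1 exceeded standard replicate 3, and the groups overlapped. The log2 difference was -1.06 (SE 0.51, adjusted p 0.681 by edgeR) and 0.24 without standard replicates 1 and 2. Vdr differed more than Hnf4a between these libraries and the others: it took 42.1%, 32.4% and 14.5% of the summed counts of both on standard chow, and 7.38%, 13.1% and 10% with zinc depletion. The Wilson interval of standard replicate 3 (11.0% to 18.9%) held the value of zinc depleted replicate 2.

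Hnf4g, the paralog of Hnf4a, was lower in every zinc depleted library than in any standard one on both scales. It had 121, 67 and 41 counts on standard chow and 36, 7 and 11 counts with zinc depletion. Its TMM-scaled CPM was 9.55, 7.25 and 4.58 against 2.47, 1.47 and 1.87. With total counts only, standard replicate 3 (4.11 CPM) still lay above zinc depleted replicate 1 (3.60), whereas for Vdr it did not. The log2 difference was -1.84 (SE 0.48), which did not pass the threshold over all genes (edgeR adjusted p 0.681). It was -1.21 (SE 0.83) without standard replicates 1 and 2. The share of Hnf4g in the counts of both HNF4 genes was 8.73%, 7.47% and 13.4% on standard chow and 4.49%, 5.26% and 6.71% with zinc depletion, also without overlap, although the Wilson intervals of zinc depleted replicates 2 and 3 (2.57% to 10.5% and 3.79% to 11.6%) each held 2 of the 3 standard values.

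Nr1h4, the bile acid receptor, had the smallest spread within a diet of the 9 tested receptors (pooled SD 0.144 in log2 CPM). Its counts were low, and counting error alone can exceed this spread, so the spread does not show a steady level. Its TMM-scaled CPM was 4.97, 3.90 and 4.91 on standard chow and 2.68, 2.52 and 2.38 with zinc depletion, from 63, 36 and 44 counts against 39, 12 and 14. The groups did not overlap on either scale. The log2 difference was -0.85 (SE 0.44), again short of the threshold (edgeR adjusted p 0.681). It was -0.95 (SE 0.78) without standard replicates 1 and 2, so this difference did not rest on those libraries as that of Vdr did. With total counts only it was -1.51, beside -0.66 for the median gene. In the summed counts of Nr1h4 and Hnf4a, the share of Nr1h4 overlapped between the groups. It was 4.74%, 4.16% and 14.2% on standard chow and 4.85%, 8.70% and 8.38% with zinc depletion. This share also depends on Hnf4a, which was highest in standard replicates 1 and 2.

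**Figure D2:**
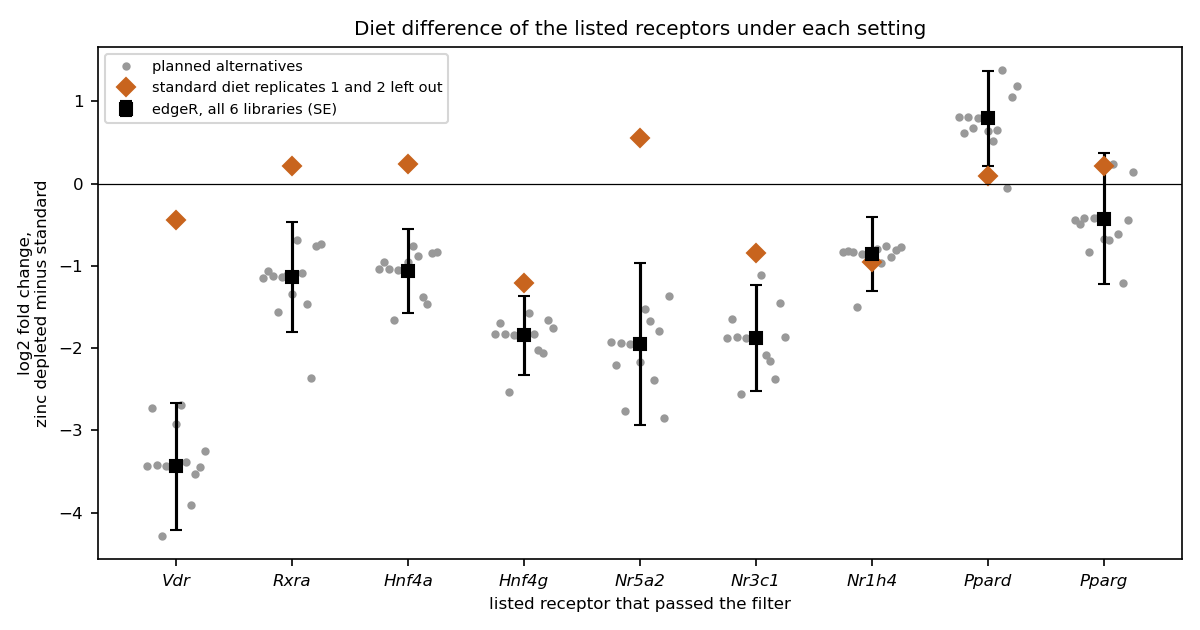
Log2 fold change of the 9 listed receptors that passed the filter (vertical axis, zinc depleted minus standard) from edgeR with all 6 libraries and its SE (black squares), under 13 other ways of processing (grey) and without standard replicates 1 and 2 (orange). Leaving out both libraries moved Vdr from -3.44 to -0.44 and turned Rxra, Hnf4a, Nr5a2 and Pparg above 0, while Hnf4g stayed at -1.21 or lower and Nr1h4 at -0.76 or lower in every setting shown.

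Nr5a2, which drives crypt renewal and local steroid synthesis, was near the limit of detection. It had 59, 39 and 5 counts on standard chow and 10, 9 and 0 counts with zinc depletion. The count of 0 in zinc depleted replicate 3 allows up to 3 counts, or 0.511 TMM-scaled CPM. Standard replicate 3 (0.558 TMM-scaled CPM) lay below zinc depleted replicates 1 and 2 (0.687 and 1.89), so the groups overlapped, and the log2 difference was -1.95 (SE 0.99, adjusted p 0.681 by edgeR).

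Nr3c1, the glucocorticoid receptor, had 14.8, 5.63 and 3.91 TMM-scaled CPM on standard chow and 3.296, 0.631 and 2.38 with zinc depletion. The groups did not overlap on this scale but did with total counts only, where zinc depleted replicate 1 passed standard replicate 3. Standard replicate 1 held more of it than any other library, at 187 counts against 52 or fewer. The log2 difference was -1.87 (SE 0.65, adjusted p 0.681 by edgeR), and it was -1.12 without standard replicate 1 and -0.84 (SE 0.95) without standard replicates 1 and 2. An antisense gene overlaps 14.8% of its exon bases.

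The 3 PPARs differed in level and in pattern. Ppard, the form expressed most widely in epithelia, made up 81.0% to 95.7% of the summed PPAR counts in each library. Its TMM-scaled CPM was 16.9, 23.6 and 47.4 on standard chow and 95.3, 33.9 and 22.3 with zinc depletion. The pattern ran opposite to that of Vdr within the standard diet, where replicates 1 and 2 were the lowest. Zinc depleted replicate 1 stood out with 1388 counts, and without it the log2 difference of 0.79 (SE 0.58, adjusted p 0.708 by edgeR) became -0.053. It was 0.51 without standard replicate 1, 1.38 without standard replicate 3 and 1.19 without zinc depleted replicate 3. Ppard took 14.5% and 20.8% of the summed counts of Ppard and Hnf4a in standard replicates 1 and 2, and 46.1% to 64.5% in the other 4 libraries.

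Pparg, known from fat cells and differentiated epithelium, had 1.74, 4.98 and 1.79 TMM-scaled CPM on standard chow and 3.57, 2.31 and 0.170 with zinc depletion. Its groups overlapped and its log2 difference of -0.42 (SE 0.79, adjusted p 0.880 by edgeR) changed sign with standard replicate 2 (0.24) or zinc depleted replicate 3 (0.14) left out. It was -0.69 without standard replicate 1 and -1.21 without zinc depleted replicate 1. Ppara, the PPAR of fatty acid oxidation, had 3 to 15 counts per library and did not pass the filter. The gene Cdpf1 on the opposite strand overlaps 27.4% of its exon bases, so part of these few counts may not be its own.

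**Figure D3:**
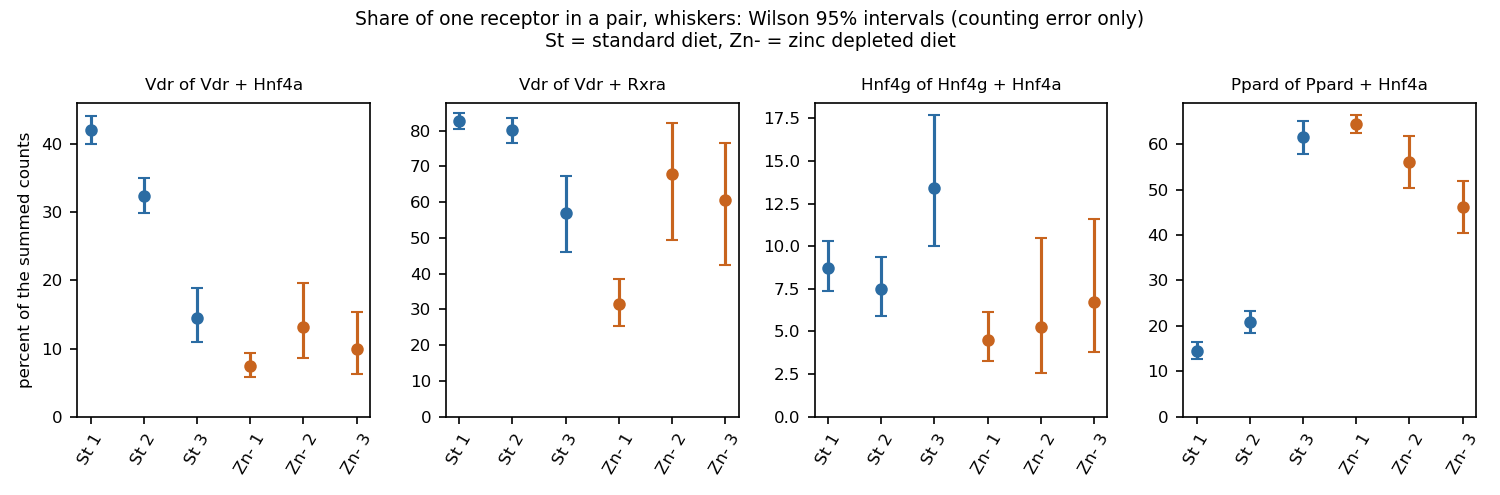
Share of the first gene in the summed counts of a receptor pair (vertical axis, percent) in each library, with Wilson 95% intervals that cover counting error only. Ppard took 14.5% and 20.8% of its pair with Hnf4a in standard replicates 1 and 2 but 61.6% in standard replicate 3, close to the 46.1% to 64.5% of the zinc depleted libraries.

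Levels were ordered within each diet after division by exon length. On standard chow, Hnf4a came first at 14.5 ± 7.55 TMM-scaled CPM per kb (SD, n = 3), followed by Vdr at 7.01 ± 5.90 and Ppard at 3.90 ± 2.14. Hnf4g (1.62 ± 0.57), Rxra (1.43 ± 0.83), Nr3c1 (1.03 ± 0.74) and Nr1h4 (0.947 ± 0.125) came next, then Pparg (0.407 ± 0.267), Nr5a2 (0.365 ± 0.261) and Ppara (0.110 ± 0.061). Of these neighbours, only Nr1h4 and Pparg lay further apart than their SDs. With zinc depletion Hnf4a (6.96 ± 3.01) and Ppard (6.72 ± 5.22) led, and a gap beyond the SDs separated Ppard from Vdr (0.643 ± 0.122). Below it, Rxra, Nr1h4, Hnf4g, Pparg, Nr3c1, Ppara and Nr5a2 followed from 0.622 down to 0.0996, none apart from the next by more than the SDs.

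Leaving out Vdr, which was chosen by this contrast, 7 of the 8 other tested receptors had a log2 difference below 0, against 50% of all 9749 tested genes. The median of the list was -1.13. It includes Vdr, so it is a description only and is not set against the other genes. Groups that did not overlap, with zinc depletion lower, were seen for Hnf4g, Nr3c1 and Nr1h4, and for 6.58% of all tested genes. An unadjusted edgeR p under 0.05 with zinc depletion lower was reached by Hnf4g and Nr3c1, and by 4.03% of all tested genes. None of the 8, and 0% of all genes, had an edgeR adjusted p under 0.05, where 645 genes had an unadjusted p under 0.05. DESeq2 called 10 genes, none of them 1 of these 8, and limma-voom 0. These counts describe the list and are no test of it. The list was chosen with earlier results of these data known, and most of the receptors were highest in the same libraries. Without standard replicates 1 and 2 the median of the list, Vdr included, was 0.091.

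The other 39 mouse nuclear receptors give the family background. Of these, 18 passed the filter and 15 of the 18 had a log2 difference below 0, against 50% of all 9749 tested genes. The median of the 18 was -0.55. No count was found in any library for 10 receptors, among them the estrogen receptor Esr2, Rxrg and Rarb. Per length, the most abundant of the 39 were the oxysterol receptor Nr1h2, the orphan receptors Esrra and Nr2f6, and Rxrb. Their groups overlapped in TMM-scaled CPM, with 4.84 ± 0.87 and 3.89 ± 0.99 TMM-scaled CPM per kb (SD, n = 3) for Nr1h2 and 3.73 ± 0.97 and 3.32 ± 1.31 for Esrra. With total counts only, Esrra was lower in every zinc depleted library.

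Rxrb, another partner for these receptors, exceeded Rxra in TMM-scaled CPM in 4 of the 6 libraries, with 12.0 and 8.48 in standard replicates 2 and 3 and 9.26 and 5.45 in zinc depleted replicates 2 and 3. Its log2 difference was -0.58 (SE 0.38, adjusted p 0.701 by edgeR). Nr2f6, Nr1d1, Nr1i2 (the xenobiotic receptor PXR) and Nr1d2 had log2 differences of -0.43, -1.08, -0.80 and 0.44, with overlapping groups and edgeR adjusted p from 0.707 to 0.743.

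Thra, a thyroid hormone receptor, and Nr1h3, the second oxysterol receptor, had an unadjusted edgeR p under 0.05 with zinc depletion lower. The same held for 4.03% of all tested genes, and 6.58% of them had lower groups without overlap. Nr1h3 had 3.71, 3.57 and 3.68 TMM-scaled CPM on standard chow and 0.893, 1.89 and 1.02 with zinc depletion, from 47, 33 and 33 counts against 13, 9 and 6. The standard libraries lay close together, but at 33 to 47 counts the counting error is wider than their spread. They lay above every zinc depleted library on both scales, with a log2 difference of -1.57 (SE 0.54, adjusted p 0.681 by edgeR). Thra had 13.3, 10.8 and 5.80 against 4.33, 4.84 and 5.11 TMM-scaled CPM, a log2 difference of -1.08 (SE 0.43, adjusted p 0.681 by edgeR), and its groups overlapped with total counts only.

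To find the receptors that share the pattern of Vdr, log2 CPM was centred on the mean of the 6 libraries and the root mean square difference from Vdr over the 6 libraries was taken. The centred values of Vdr were 2.88, 2.13 and -0.92 on standard chow and -1.17, -1.24 and -1.67 with zinc depletion. Nr5a2 (1.01) and Hnf4g (1.02) were nearest, followed by Esrrg (1.05), Thrb (1.07), Rxra (1.10), Hnf4a (1.11) and Nr3c1 (1.11). Standard replicates 1 and 2 were the 2 highest libraries for each of these 7 receptors, but with smaller rises than in Vdr: at most 2.00 and 1.69 above the mean. Nr1h4 (1.54) and Pparg (1.69) stood further off, and Ppard (2.37) was the most distant of the 26 tested receptors. This measure is a description over 6 libraries and also reflects how strongly a gene varies. No floor on expression beyond the filter was set for the receptors. Nr5a2 (0 to 59 counts per library) and Thrb (0 to 37) were scarce, so single counts shape their patterns. Nr5a2 lay at 0.62 in zinc depleted replicate 2 and -2.68 in zinc depleted replicate 3, and took place 96 among 9748 other tested genes.

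**Figure D4:**
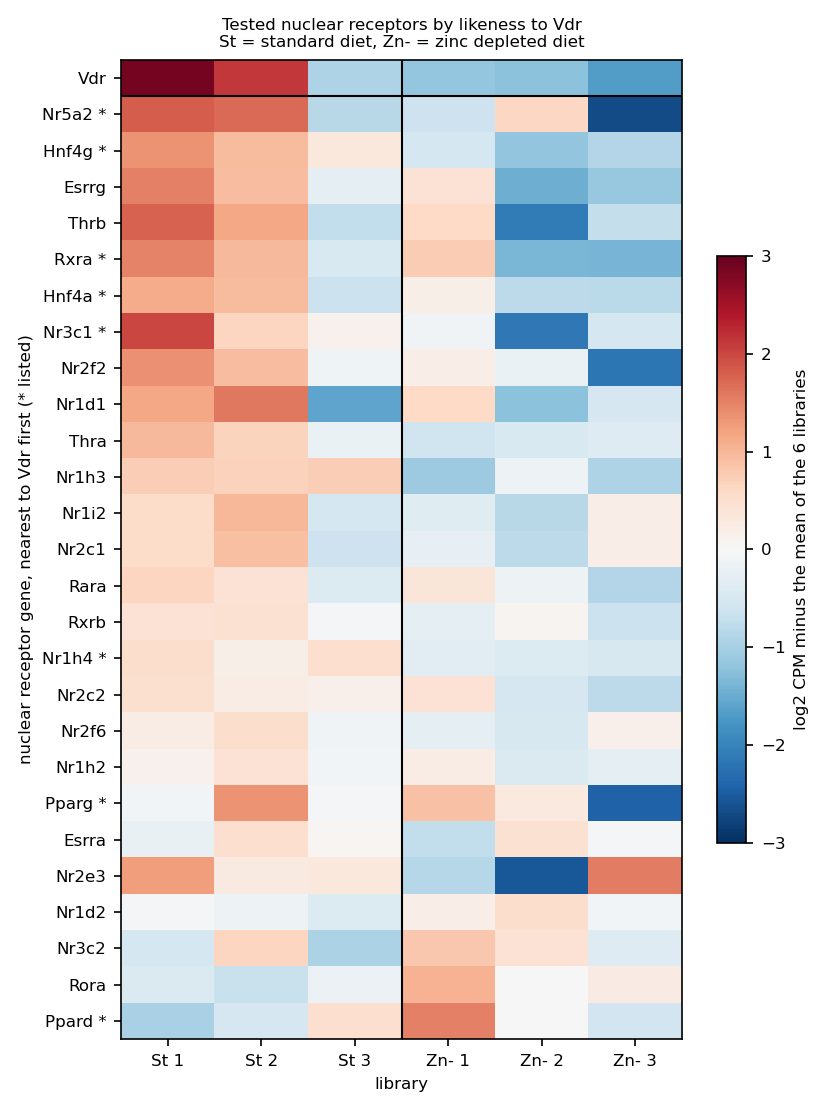
Centred log2 CPM (color, log2 CPM minus the mean of the 6 libraries) of the 27 tested nuclear receptors (rows, nearest to Vdr first, listed receptors with an asterisk) in each library (columns). Rows near the top share high values in standard replicates 1 and 2, while Ppard at the bottom is below its mean there, at -0.97 and -0.49, and highest in zinc depleted replicate 1, at 1.51.

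No receptor came as near to Vdr as several other genes did. Among 6482 other genes with a mean log2 CPM of at least 2, the 8 nearest were Tent5c (0.38), Nlrp6 (0.41), Bambi (0.41), Rgmb (0.59), Axin2 (0.59), Dmbt1 (0.70), Cpt1a (0.70) and Erbb2 (0.72), against a median of 1.87. Bambi and Rgmb act in BMP signaling, Axin2 is a feedback gene of Wnt signaling, Nlrp6 is an innate sensor, and Cpt1a brings fatty acids into mitochondria. Tent5c had 89.6, 96.1 and 5.92 TMM-scaled CPM on standard chow and 9.41, 7.57 and 4.09 with zinc depletion, so like Vdr it was high in standard replicates 1 and 2 and under 10 in the other 4 libraries. The same 8 genes were nearest with total counts only. Since they were picked for their likeness, their own diet difference is not read as support.

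**Figure D5:**
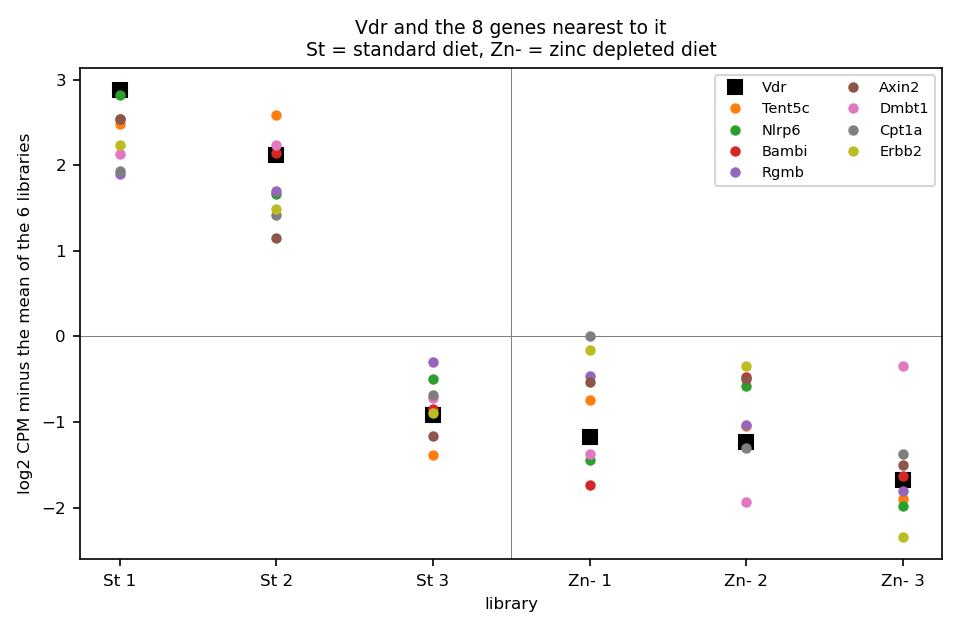
Centred log2 CPM (vertical axis, log2 CPM minus the mean of the 6 libraries) of Vdr (black squares) and of the 8 genes nearest to it in each library (horizontal axis). All 9 genes lie above their mean in standard replicates 1 and 2, where Vdr reached 2.88 and 2.13, and below it in the other 4 libraries, apart from Cpt1a in zinc depleted replicate 1 (0.0063).

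Markers of other crypt cells also differed between the libraries. The summed level of 6 proliferation markers (all 6 detected) was 67.1 to 114 TMM-scaled CPM on standard chow and 32.8 to 54.5 with zinc depletion, without overlap. The stem cell marker Lgr5 had 19.7, 10.7 and 3.57 TMM-scaled CPM on standard chow and 4.39, 5.47 and 0.511 with zinc depletion, and Ascl2 had 8.76, 6.50 and 1.12 against 0.275, 1.47 and 0, so both were highest in standard replicates 1 and 2, as was Vdr. The other stem cell markers did not share this: Olfm4 was at 829 in standard replicate 2, below 1248 in standard replicate 3 and 1111 in zinc depleted replicate 3, and Smoc2 was at 55.1 in standard replicate 2, below 77.0 in zinc depleted replicate 2. The sum of the 4 was 902 to 2067 and 387 to 1161 and overlapped. The 8 enterocyte markers (all detected) summed to 155 to 306 and 119 to 215, highest in standard replicate 2. Alpi reached 10.1 in that library and was at 0 in standard replicate 3 and zinc depleted replicates 2 and 3, while Vil1 was at 51.6 or more in every library. The 6 goblet cell markers summed to 1160 to 1664 and 1784 to 3941, mostly from Muc2 and Tff3. These sums did not overlap, but they did with total counts only, and each of the 6 genes overlapped between the groups, with 4 above and 2 below 0 in log2 difference. The 5 tuft cell markers summed to 27.5 to 493 and 62.3 to 132, also highest in standard replicate 2. The 6 enteroendocrine markers summed to 38.7 to 54.8 and 16.1 to 73.7, the 6 immune markers to 1.67 to 5.30 and 0.481 to 7.66, and the 5 stromal markers to 0.316 to 1.41 and 0.618 to 2.31. The part of these cell types in the receptor values was not tested.

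Genes that the receptors are known to control were counted next, from lists of 52 target and coregulator genes. Of these, 32 were tested and 24 of them had a log2 difference below 0, against 50% of all 9749 tested genes. None had an edgeR adjusted p under 0.05. The lists were chosen with earlier results of these data known, so such counts describe them and are no test. The classic intestinal Vdr targets were almost silent: Cyp24a1, which breaks down vitamin D, and the calcium channel gene Trpv6 had no count in any library. The calcium carrier gene S100g had 21, 5 and 6 counts on standard chow and 3, 0 and 3 with zinc depletion, too few to pass the filter. Its groups did not overlap as counted on either scale. The count of 0 in zinc depleted replicate 2 allows up to 0.631 TMM-scaled CPM, however, above standard replicate 2 (0.541), so overlap on that scale is possible. The tested Vdr targets were the calcium pump gene Atp2b1, with a log2 difference of -0.19 (SE 0.53), and the claudin gene Cldn2, with 0.68 (SE 0.48). Cldn2 had 96.0, 135 and 233 TMM-scaled CPM on standard chow and 363, 174 and 205 with zinc depletion, lowest on this scale in the libraries where Vdr was highest. With total counts only it was lowest in zinc depleted replicates 2 and 3, at 112 and 94.3 CPM, against 166 and 203 in standard replicates 1 and 2.

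Of 6 HNF4 targets, 3 were tested and 2 lay below 0. Mttp, which loads lipid onto lipoproteins, had 12.2, 27.7 and 6.59 TMM-scaled CPM on standard chow and 3.98, 2.95 and 3.58 with zinc depletion, without overlap and with a log2 difference of -2.13 (SE 0.53, adjusted p 0.681 by edgeR). Apob, its lipoprotein partner, had a log2 difference of -2.15 (SE 0.71) with overlapping groups.

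Of 12 PPAR targets, 10 were tested and 9 lay below 0, against 50% of all tested genes. The median of the 10 was -1.50. Angptl4, an inhibitor of lipoprotein lipase, had 38, 56 and 20 counts on standard chow and 3, 2 and 0 with zinc depletion. Its groups did not overlap, and its log2 difference was -4.15 (SE 0.85, adjusted p 0.681 by edgeR). The more abundant Hadha, an enzyme of fatty acid oxidation, had -0.59 (SE 0.40). Angptl4 was highest in standard replicates 1 and 2, where Ppard, the most abundant PPAR, was at 16.9 and 23.6 TMM-scaled CPM. Ppard was as low in zinc depleted replicate 3 (22.3), where Angptl4 had no count. With total counts only, Ppard was at 29.2, 35.5 and 42.6 CPM on standard chow and 139, 21.7 and 10.3 with zinc depletion. The levels of these genes thus did not run opposite over all libraries.

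Glucocorticoid receptor targets went both ways: of 6 tested, 2 lay below and 4 above 0. Tsc22d3 (GILZ), an anti-inflammatory target, had a log2 difference of -1.52 (SE 0.64) and Sgk1, a kinase of ion transport, 1.54 (SE 0.67), neither past the threshold (edgeR adjusted p 0.681), while Fkbp5 had -1.001 (SE 0.46) and Klf9 0.52 (SE 0.51). Of the Nr5a2 targets, Ccnd1 had -0.61 (SE 0.37) and Ccne1 -0.062 (SE 0.79), and the steroid enzyme gene Cyp11b1 had no count. No bile acid receptor target passed the filter, and Fgf15 had no count in any library. The 9 tested coregulators lay between -0.61 and 0.14, with Ncor1 at -0.43 (SE 0.49) and Nrip1 at -0.61 (SE 0.55).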

How the data were processed

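RNA-seq of sorted mouse Paneth cells was analysed in 6 libraries. The authors deposited raw read counts per Ensembl gene. Their notes and methods name FastQC, Trimmomatic 0.39 and STAR (2.7.10a in the notes) on GRCm39 (mm39), while neither the counting program nor its strand setting or handling of multiply matching reads is stated. Of 55414 identifiers, 54749 were found in GENCODE M39, which gave symbols, positions and exon lengths. Depth was 6139397 to 12772373 counts, and a count of 0 allows up to 3 counts. Wilson 95% intervals and these limits cover counting error only.

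Diets were compared by the two-sided quasi-likelihood test of edgeR 4.0.16 (R 4.3.3) with TMM, filterByExpr and diet as the only term, with Benjamini-Hochberg adjustment over 9749 genes and a threshold of 0.05. SE is the absolute log2 fold change divided by the square root of F. A prior count of 2 went into centred log2 CPM. The labels do not name the animals behind the replicates, so p-values measure the spread between these libraries. No pair of libraries of a group agreed within sampling noise (chi-square per degree of freedom of at least 16.9). The fit was tested on simulated counts. Alternatives were DESeq2 1.42.0, limma-voom (limma 3.58.1), other scalings, no filter, a replicate block and omitted libraries.

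Members, target lists and marker lists were chosen with earlier results of these data known. Named genes were the 10 receptors, the 8 most abundant other receptors per kb and any other with an unadjusted p under 0.05, the 2 genes of smallest p and the 2 of highest CPM in each target list, and the 8 genes nearest to Vdr. Other receptors, markers and targets named were chosen after their values were seen. Some genes and a sequence that this rule covers are not reported here.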

Additional observations from a re-analysis of the deposited data

How the results depend on the processing

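Over 13 alternatives and 1 more chosen after seeing the data (without standard replicates 1 and 2), edgeR called 0 genes except without the low-count filter (76 genes, of which 1 listed receptor and 6 targets) and without standard replicate 3 (28 genes, 1 receptor and 1 target). With 1 library left out, the calls thus ranged from 0 to 28 genes, from 0 to 1 receptors and from 0 to 1 targets. DESeq2 called 10 genes, with 1 receptor and 1 target, and limma-voom called 0, with 625 at an unadjusted p under 0.05. The receptor called in these 3 settings, in the list and in the whole family, was Vdr, which the contrast itself had chosen. The targets included Angptl4 (DESeq2), Dusp1 (without standard replicate 3), and Angptl4, Mttp, Fabp1, Apob and Cpt1a (no filter). The cause was not tested. The median log2 fold change of the listed receptors, Vdr included, ranged from -1.785 to -0.79 with 1 library left out. It was 0.091 without standard replicates 1 and 2. In that setting Rxra (0.22), Hnf4a (0.24), Nr5a2 (0.56) and Pparg (0.21) changed sign and Vdr was at -0.44. Pparg also changed sign without standard replicate 2 (0.24) and zinc depleted replicate 3 (0.14), and Ppard without zinc depleted replicate 1 (-0.053). With 1 library left out Pparg ranged from -1.21 to 0.24 and Ppard from -0.053 to 1.38. Hnf4g, Nr1h4, Nr3c1 and Vdr kept their direction in all 14 settings. Replicate numbers did not pair the libraries (correlations of deviations 0.147, -0.058 and 0.248), and with a replicate block 0 genes were called and Vdr was at -2.92. Depth limits the scarcest receptors: Ppara, with 3 to 15 counts per library, was not tested.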
